A study of Homo sapiens with 4 samples.

Results

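The genes described here encode the PI3K, AKT and mTOR signaling pathway, the main survival pathway downstream of the receptor tyrosine kinases KIT and PDGFRA in gastrointestinal stromal tumors (GISTs). They are 36 genes listed by symbol, and all 36 were found by exact name among the 36337 gene names on the array. Expression was measured in GIST-T1, an established human GIST cell line, which was transfected by electroporation with 100 pmol of a miR-34a mimic or of a negative control RNA per 3000000 cells. A mimic is a synthetic double-stranded RNA that supplies the mature miRNA. Total RNA was extracted 48 h later and hybridized to one-color arrays, with 2 arrays for each condition. The arrays of the 2 conditions are called mimic arrays and control arrays from here on. Both conditions shared the cell line, the electroporation and the dose of RNA, and untransfected cells were not analysed here. Nothing in the labels says that the replicates were separate cultures, so the p-values measure the spread between these arrays, which may be technical.

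Class I PI3K is recruited to an activated receptor directly or through adaptors, and it phosphorylates an inositol lipid of the plasma membrane. The kinases PDPK1 and AKT bind this lipid, phosphatases remove it, and active AKT inhibits GSK3 and the TSC complex. Relief of TSC lets the GTPase RHEB activate mTOR complex 1, which promotes translation through the S6 kinases and the cap-binding protein EIF4E. Oncogenic KIT or PDGFRA drives this pathway in GIST. A miRNA lowers the level or translation of mRNAs that pair with its seed, and arrays measure only the mRNA level, not phosphorylation or protein.

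The mature miRNA that the mimic supplies is given as listed by RefSeq (GRCh38.p14, chr1:9151735-9151756, minus strand), because its seed defines the mRNA sites it pairs with. The seed, bases 2 to 8 from the 5′ end, is in capitals.
hsa-miR-34a-5p: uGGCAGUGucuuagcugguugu

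The 7-mers that pair with this seed in an mRNA are CACTGCC and, with an A opposite the first base, ACTGCCA. Among the 55 probes of the 36 genes, each 60 bases long, 0 held CACTGCC and 0 held ACTGCCA, against 0.435% and 0.393% of all 50599 probes. On the opposite strand, GGCAGTG was found in 1 of the 55 probes, a MAPKAP1 probe, against 0.48% of all probes, and TGGCAGT in 0, against 0.488%. A probe covers a short stretch of a transcript, so these counts say nothing about sites elsewhere in the mRNA.

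Of the probes on each array, 41.8% to 45.2% were well above background. All 5 GIST markers examined (KIT, ANO1, ETV1, PRKCQ and CD34) were well above background on all 4 arrays, whereas 3 of 5 epithelial markers (CDH1, KRT20, VIL1) and 3 of 4 endothelial markers (PECAM1, TEK, KDR) were not on any array. The leukocyte marker CD14 was dim but above background on all arrays, and DES and SMTN of 4 smooth muscle markers were well above it. Signals are given as log2 values relative to the 75th percentile of each array, so that 0 is the signal at that percentile. They cannot be compared between genes, because probes differ in brightness. For each gene the brightest probe was taken, and differences are mimic minus control.

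Of the 36 genes, 32 were well above background on all 4 arrays and were tested. Their differences were small: 17 were above 0 and 15 below, the median was 0.021, and the range was from -0.35 for EIF4E to 0.26 for TSC2. By more than 1.5-fold, 0 were lower and 0 were higher, against 4.82% and 1.96% of the 16182 genes tested (780 and 317 genes, or 601 and 474 after quantile normalization). The median over all genes was -0.0067, and the median size of the difference regardless of sign was 0.108 for the pathway genes and 0.15 for all genes. By limma, 0 of the 32 were lower and 0 higher at an adjusted p below 0.05, as were 0% and 0% of all genes. With normexp background correction limma called 356 genes lower and 376 higher, of which 0 and 0 were pathway genes. At an unadjusted p under 0.05, 2 were lower (INPP4A and EIF4EBP1) and 4 were higher (PIK3R3, AKT1, AKT2 and TSC2), while 11.9% of all genes were lower and 13% were higher. The variance was then allowed to follow the signal level in limma (the variance trend). At an adjusted p under 0.05, 1 of the 32 was then lower, EIF4EBP1, and 0 were higher, against 3.96% and 4.28% of all genes. At an unadjusted p under 0.05 with the trend, 2 were lower and 4 higher, against 2335 and 2471 of the 16182 genes. Each of these shares among the pathway genes was near or under that among all genes. RNA from a whole culture was measured, so that a change in a fraction of the cells and a change in every cell cannot be told apart.

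For 27 of the 32 genes the 95% interval of the difference lay wholly within 1.5-fold in either direction, as it did for 70.2% of all genes. The other 5, whose interval reached beyond 1.5-fold, were EIF4E, DEPTOR, INPP4B, IRS1 and GAB1. The 2 mimic arrays were both below the 2 control arrays for 9 genes and both above for 9, against 30.7% and 31.3% of all genes, and the conditions overlapped for 14. For a single gene, the smallest p that an exact two-sided permutation test can give in this design is 0.33.

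**Figure D1:**
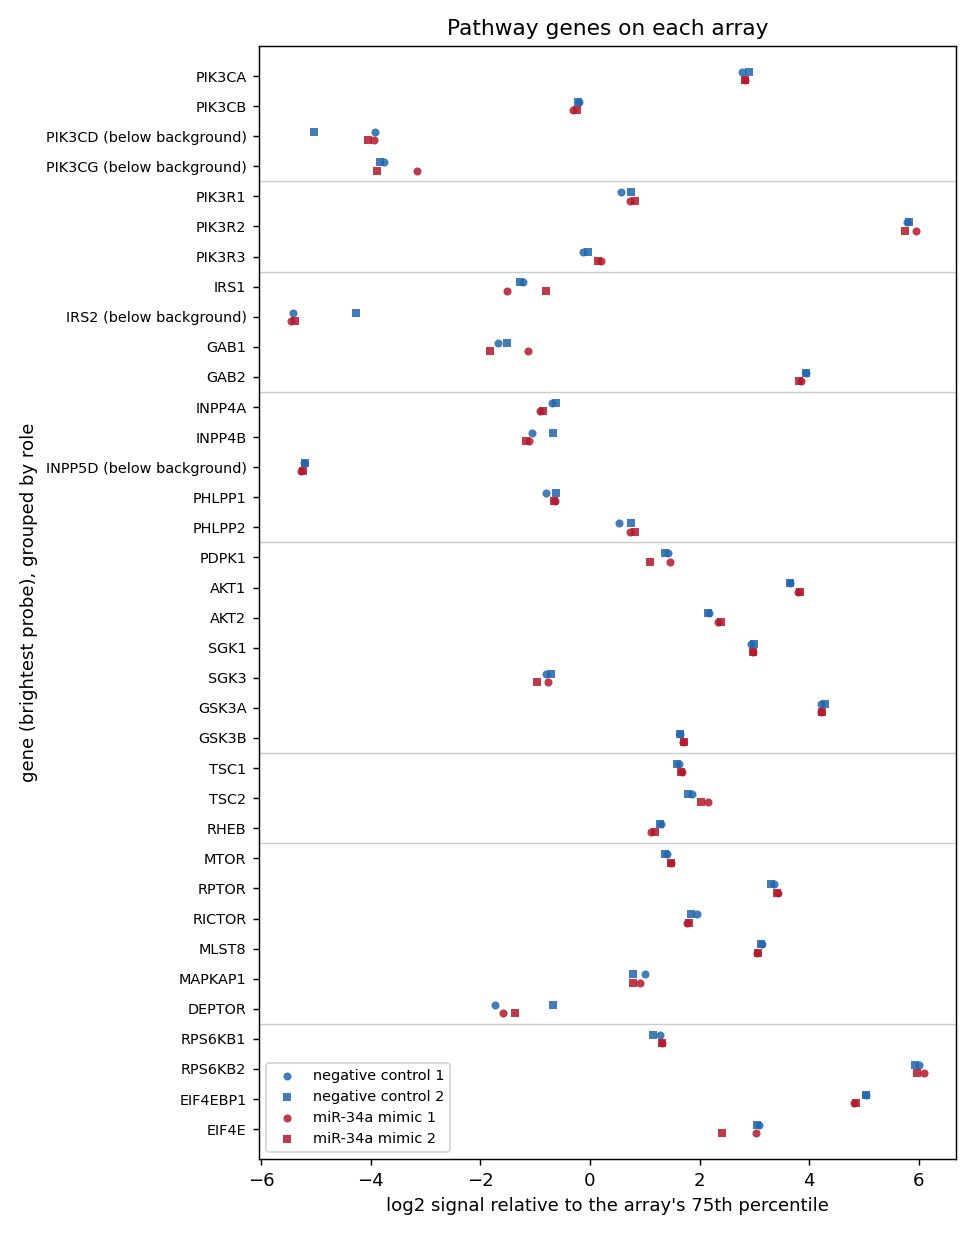
Log2 signal relative to the 75th percentile of the array (x axis) for the brightest probe of each of the 36 genes, grouped by role, with 1 point per array. The mimic arrays (red) and the control arrays (blue) lie close together for most genes, and 4 genes marked as below background were not tested.

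**Figure D2:**
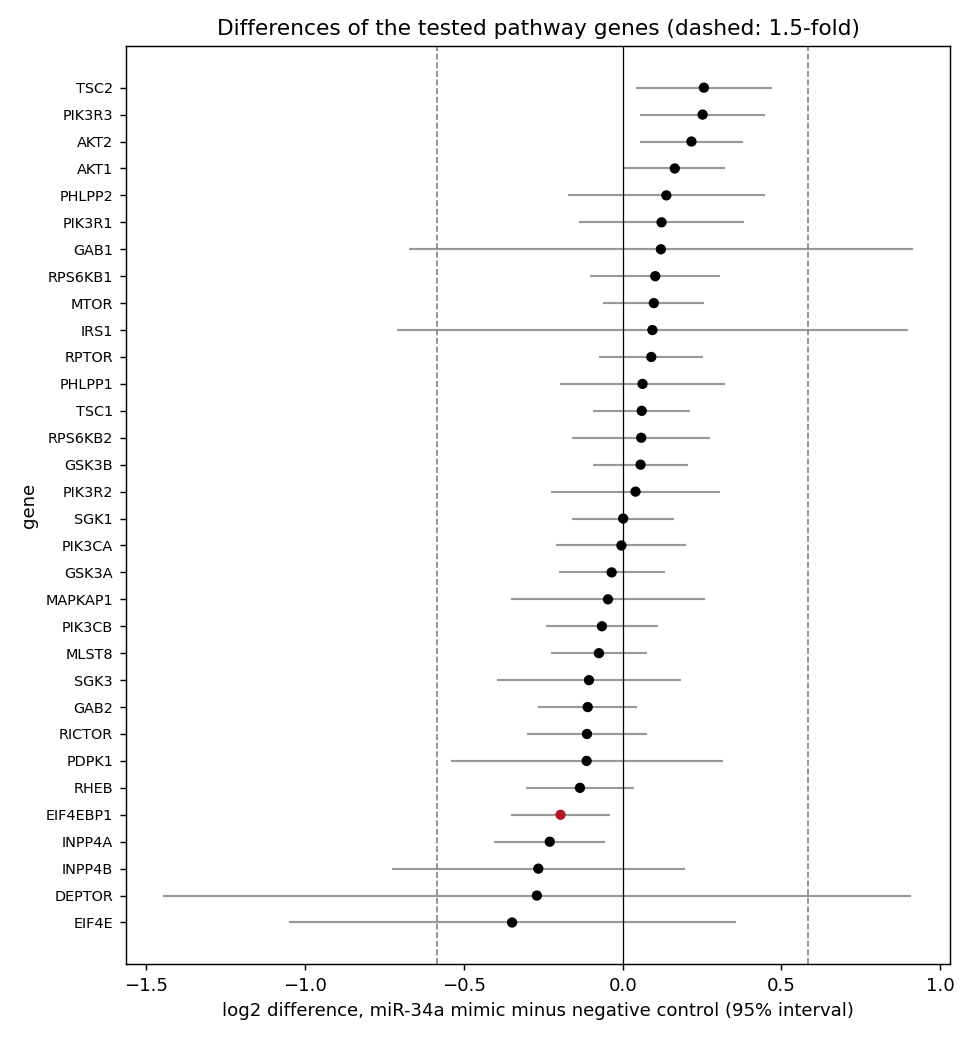
Log2 difference, mimic minus control (x axis), for the 32 tested genes, with the 95% interval by limma; dashed lines mark 1.5-fold. The points lie between -0.35 and 0.26, and EIF4EBP1 (red) is the one gene with an adjusted p under 0.05 when the variance is modeled along the signal.

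The catalytic subunits of class I PI3K that were detected showed little difference. PIK3CA, the alpha subunit and the one most often mutated in human cancers, had log2 signals of 2.83 and 2.82 with the mimic and 2.77 and 2.89 with the control. The conditions overlapped, and the difference was -0.0042 (95% interval -0.21 to 0.20, adjusted p = 0.976 by limma). A second PIK3CA probe gave -0.08. PIK3CB, the beta subunit, had signals of -0.31 and -0.23 against -0.20 and -0.21, a difference of -0.07 (95% interval -0.24 to 0.11). PIK3CD and PIK3CG, the delta and gamma subunits, which are known mainly from leukocytes, were not well above background on any array with their brightest probe. A second PIK3CD probe was well above background on 1 control array only, with signals of -3.66 and -2.82 with the control and -5.55 and -5.47 with the mimic. Its decrease is at least 1.01-fold, a bound that is not strict because the undetected control array enters at its own signal.

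The regulatory subunits, which stabilize the catalytic subunit and bind phosphorylated receptors and adaptors, all had differences above 0. PIK3R3 had signals of 0.20 and 0.15 with the mimic and -0.13 and -0.03 with the control. Both mimic arrays were higher, by 0.25 (standard error 0.0673, adjusted p = 0.157 by limma). PIK3R1, the best known of these subunits, had signals of 0.74 and 0.82 against 0.57 and 0.75, which overlapped, and differed by 0.12 (95% interval -0.14 to 0.38). PIK3R2 had signals of 5.95 and 5.75 against 5.79 and 5.83, with a difference of 0.04, and its mimic arrays lay on either side of the control arrays.

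Adaptors carry the signal from a receptor to PI3K. GAB2, which acts downstream of KIT, had signals of 3.86 and 3.82 with the mimic and 3.94 and 3.95 with the control. Both mimic arrays were slightly lower, by 0.11 (95% interval of the difference -0.27 to 0.05). The related adaptor GAB1 had signals of -1.13 and -1.83 against -1.68 and -1.51, and IRS1, an adaptor of the insulin and IGF receptors, had -1.52 and -0.79 against -1.23 and -1.27. In both of these dim probes the mimic replicates differed by more than the conditions. The 95% intervals ran from -0.67 to 0.91 for GAB1 and from -0.71 to 0.90 for IRS1. They reached beyond 1.5-fold in both directions, so that a difference of this size was not excluded. IRS2, the other adaptor of these receptors, was below the detection level on all 4 arrays.

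Among the phosphatases that oppose the pathway, INPP4A and INPP4B remove a phosphate from a lipid product of PI3K. INPP4A had signals of -0.91 and -0.86 with the mimic and -0.68 and -0.62 with the control. Both mimic arrays were lower, with a difference of -0.23 (standard error 0.0602, adjusted p = 0.153 by limma). INPP4B had signals of -1.11 and -1.16 against -1.06 and -0.67, a difference of -0.27 (95% interval -0.73 to 0.20), which was -0.066 without control array 2. INPP5D, a lipid phosphatase of blood cells, was below the detection level on all 4 arrays. PHLPP1 and PHLPP2 dephosphorylate AKT, and with their brightest probes they differed by 0.06 (95% interval -0.20 to 0.32) and 0.14 (95% interval -0.17 to 0.45).

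The probes of PHLPP2 disagreed. Its brightest probe (hg19 chr16:71679160-71679219) had signals of 0.72 and 0.83 with the mimic and 0.52 and 0.75 with the control. A much dimmer probe annotated to the same transcript (hg19 chr16:71686698-71686757) had signals of -2.72 and -2.99 against -2.13 and -2.11. On this probe both mimic arrays were lower, by more than 1.5-fold (difference -0.73, standard error 0.114, adjusted p = 0.101 by limma and 0.117 with the variance trend). It was well above background on 3 arrays, both of the control and 1 of the mimic, and it was the one tested probe of the pathway genes that differed by more than 1.5-fold. The array annotation gives no exon or UTR for these positions, and whether the probes read different transcripts was not tested.

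PDPK1 phosphorylates AKT at the membrane, and AKT1 and AKT2 are the kinases that relay the PI3K signal. AKT2 had signals of 2.35 and 2.40 with the mimic and 2.17 and 2.15 with the control. Both mimic arrays were higher, by 0.22 (standard error 0.0559, adjusted p = 0.151 by limma), and a second probe of AKT2 gave 0.18. AKT1 had signals of 3.79 and 3.84 against 3.65 and 3.66, and again both mimic arrays were higher, by 0.16 (standard error 0.0548, adjusted p = 0.2 by limma). The sizes correspond to 1.16-fold for AKT2 and 1.12-fold for AKT1. With the variance trend the adjusted p was 0.0632 for AKT2 and 0.0781 for AKT1. PDPK1 had signals of 1.46 and 1.10 against 1.42 and 1.37, a difference of -0.11 (95% interval -0.54 to 0.31), and its second tested probe gave 0.13. PDPK1 has a near-identical copy, PDPK2P, from which its probes may not be distinct.

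SGK1 and SGK3, kinases related to AKT that also depend on PI3K, differed by 0.0014 (95% interval -0.16 to 0.16) and -0.11 (95% interval -0.40 to 0.18). GSK3A and GSK3B, which AKT inhibits, differed by -0.035 (95% interval -0.20 to 0.13) and 0.06 (95% interval -0.09 to 0.21). SGK1 was among the most even of the genes, with signals of 2.97 and 2.97 with the mimic and 2.94 and 2.99 with the control. GSK3B had 1.70 and 1.71 against 1.65 and 1.65.

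TSC1 and TSC2 form the complex that inactivates RHEB. TSC2 had signals of 2.15 and 2.03 with the mimic and 1.87 and 1.80 with the control. Both mimic arrays were higher, by 0.26 (standard error 0.0738, adjusted p = 0.171 by limma and 0.0787 with the variance trend). A dimmer TSC2 probe, annotated to another transcript and on the 5′ side, went the other way, with a difference of -0.16 (95% interval -0.67 to 0.35). TSC1 differed by 0.06 (95% interval -0.09 to 0.21). RHEB had signals of 1.11 and 1.19 against 1.29 and 1.28, and both mimic arrays were lower, with a difference of -0.13 (95% interval -0.31 to 0.04). A second probe that carries the name RHEB gave 0.21, but the array annotation places it on the plus strand, opposite to RHEB, so it is not a second measure of RHEB mRNA.

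Within the mTOR complexes, MTOR, the kinase itself, and RPTOR, which defines complex 1, were each slightly higher on both mimic arrays, by 0.10 (95% interval -0.06 to 0.26) and 0.09 (95% interval -0.07 to 0.25). RICTOR, which defines complex 2, and MLST8, a subunit of both, were slightly lower on both mimic arrays, with differences of -0.11 (95% interval -0.30 to 0.08) and -0.07 (95% interval -0.23 to 0.08). For MTOR the signals were 1.49 and 1.48 against 1.41 and 1.36, and for RICTOR 1.77 and 1.80 against 1.95 and 1.85. A second MLST8 probe gave 0.03, with overlapping conditions. None of these 4 genes passed the unadjusted threshold by limma. MAPKAP1, another subunit of complex 2, differed by -0.05 on its brightest probe, and by -0.37 and 0.22 on 2 dimmer probes.

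DEPTOR, an inhibitor bound to mTOR in both complexes, was dominated by 1 array. Its signals were -1.58 and -1.37 on the mimic arrays, -1.73 on control array 1 and -0.68 on control array 2. The difference of -0.27 had a 95% interval from -1.45 to 0.91, became -0.80 without control array 1 and turned to 0.26 without control array 2.

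The targets of mTOR complex 1 in translation included the 1 gene called with the variance trend, EIF4EBP1, and the gene with the largest difference, EIF4E. EIF4EBP1 encodes the repressor that holds EIF4E until mTOR phosphorylates it. It had signals of 4.82 and 4.86 with the mimic and 5.03 and 5.04 with the control, so that the replicates lay within a narrow range and both mimic arrays were lower. The difference was -0.20 (standard error 0.054), a 1.15-fold decrease, with an adjusted p of 0.163 by limma and 0.048 with the variance trend. Its adjusted p was above 0.05 when the trend was joined with the replicate block, with quantile normalization or with normexp. The difference lay between -0.22 and -0.17 when single arrays were left out. Fits with the trend and 1 control array called hardly any gene of all tested, so they could not check this call. RPS6KB1 and RPS6KB2, the S6 kinases, differed by 0.10 (95% interval -0.10 to 0.31) and 0.06 (95% interval -0.16 to 0.28), and the 4 tested RPS6KB1 probes lay between -0.07 and 0.11.

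EIF4E, which binds the cap of mRNAs, had signals of 3.03 on mimic array 1 and 2.40 on mimic array 2, against 3.09 and 3.05 with the control. The difference of -0.35 had a 95% interval from -1.05 to 0.36 and rested on mimic array 2, since it was -0.033 without that array and -0.66 without mimic array 1. The 2 other EIF4E probes, also well above background on all 4 arrays, showed no such drop on mimic array 2 (1.48 and 0.19, against 1.34 and 0.12 on mimic array 1) and differed by -0.08 and 0.08.

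In all, 10 of the genes had more than 1 tested probe by name, and 9 of them without the opposite-strand probe of RHEB. In 2 of these 9, PIK3CA and AKT2, all tested probes had differences of the same sign, and in the other 7 the signs differed.

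**Figure D3:**
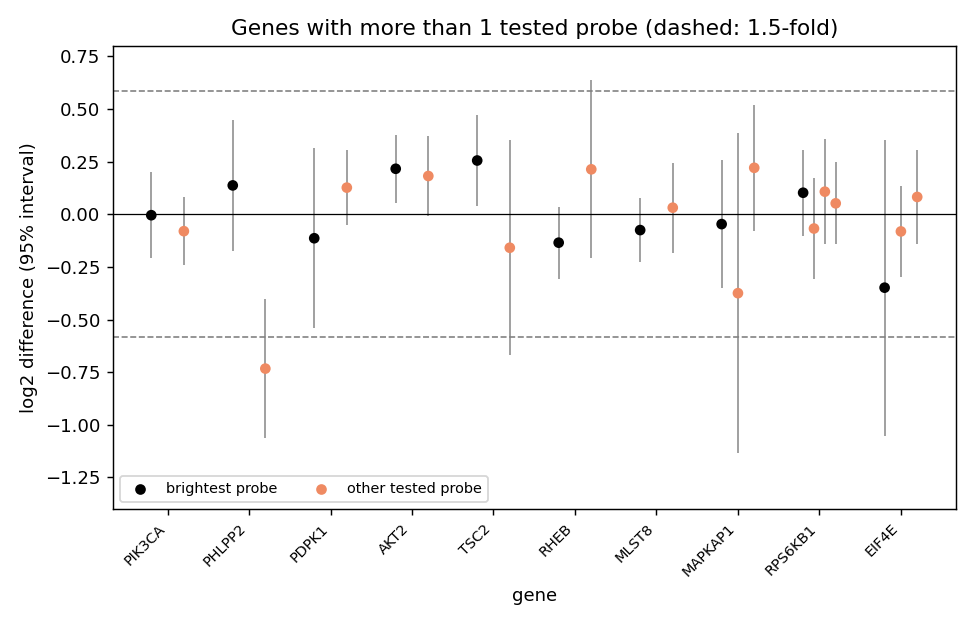
Log2 difference with its 95% interval by limma (y axis) for every tested probe of the 10 genes with more than 1 tested probe by name; the brightest probe is black and dashed lines mark 1.5-fold. The second point of RHEB is a probe annotated to the opposite strand. The dim PHLPP2 probe, at -0.73, is the one point beyond 1.5-fold.

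**Figure D4:**
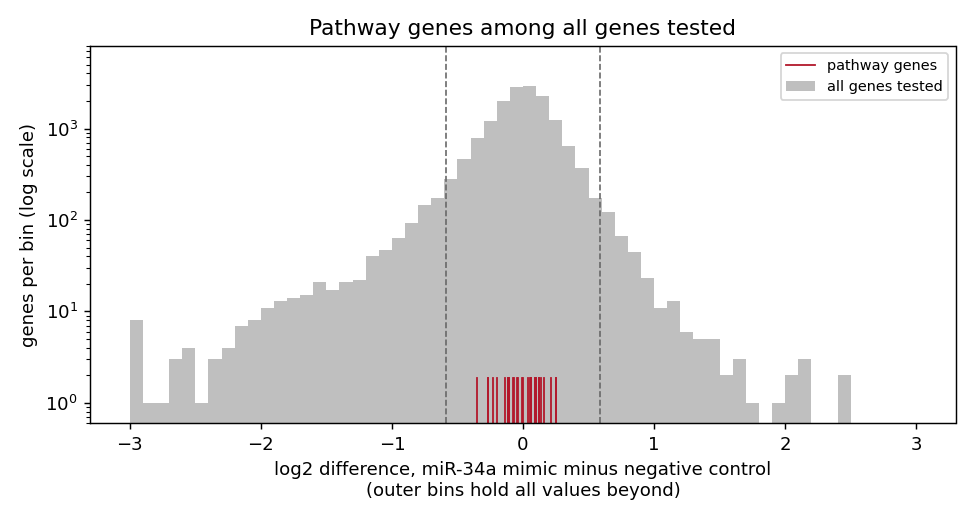
Number of genes per bin of log2 difference on a log scale (gray bars) for the 16182 genes tested, with the 32 pathway genes as red marks and 1.5-fold as dashed lines. All 32 marks lie inside 1.5-fold, where most genes lie.

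Genes that feed into or follow these steps were listed by function, 90 in all, of which 87 were on the array and 80 were tested. By limma, 0 had an adjusted p under 0.05, and 9 were lower and 9 higher at an unadjusted p under 0.05, shares near or under the 11.9% and 13% of all genes. By more than 1.5-fold, 3 were lower (PDGFRA, KIT and TXNIP) and 2 were higher (DDIT4L and BCL6), against 4.82% and 1.96% of all genes. With the variance trend 6 were lower and 4 higher at an adjusted p under 0.05, against 3.96% and 4.28% of all genes, and these 10 are named because they passed it; INPP5E, RRAGA, DDIT4 and TRIB1 among them were chosen after their values were seen. Fits with the trend and 1 control array called hardly any gene of all tested, so they could not check these calls.

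Of the receptors upstream of PI3K, KIT and PDGFRA were lower. KIT had signals of 6.74 and 6.79 with the mimic and 7.46 and 7.46 with the control, a difference of -0.70 (standard error 0.0552). PDGFRA had 4.48 and 4.35 against 5.98 and 5.92, a difference of -1.53 (standard error 0.0755). In both, the mimic arrays lay far below the control arrays, with adjusted p of 0.00705 for KIT and 0.00472 for PDGFRA by limma with the variance trend, and 0.095 for each without it. FGFR1 differed by -0.22, the dim IGF1R and PDGFRB by -0.45 and 0.29, and EGFR and ERBB2 by 0.12 and 0.20, and none of these 5 was called. The median over the 7 receptors was -0.22. By the estimated differences, KIT and PDGFRA were thus lower by more than 1.5-fold, while each of the 32 pathway genes differed by less on its brightest probe. The 95% interval of KIT (-0.86 to -0.54) reached inside 1.5-fold. Those of EIF4E, DEPTOR, INPP4B, IRS1 and GAB1 reached beyond it.

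Of 15 other PI3K subunits and inositol lipid enzymes, 1 was called with the trend, INPP5E, a lipid phosphatase of the primary cilium, with a difference of 0.23 (adjusted p = 0.0402 by limma with the trend), and the median was -0.015. The largest difference regardless of sign among them was -0.27 for SYNJ1, a phosphatase of synaptic vesicles. Of 20 genes that pass the amino acid signal to mTOR complex 1, RRAGA, a GTPase that brings the complex to the lysosome, was 0.27 higher (adjusted p = 0.032 with the trend). SEH1L, a subunit of the GATOR complex and of the nuclear pore, had a difference of -0.55 (adjusted p = 0.0424 by limma with the trend). The median of these 20 was 0.047.

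Among 13 genes of the energy and stress input, which includes the AMPK subunits, 9 had differences above 0 and 4 below. The median was 0.13, and 7878 of all 16182 genes were above 0. Signs differed between the brightest and the second probe for PRKAA1 (-0.08 and 0.35) and TBC1D7 (0.13 and -0.03). DDIT4, a stress-induced inhibitor of mTOR complex 1, was 0.29 higher (adjusted p = 0.0205 by limma with the trend). Its relative DDIT4L had a difference of 0.71 (adjusted p = 0.0606 by limma with the trend). Of 5 further partners of the mTOR complexes 0 were called, with a median of 0.045 and the largest difference, 0.30, for TTI2. Of 8 translation targets 7 had differences below 0, as did 8304 of all 16182 genes, and the median was -0.058. Most were close to 0, such as EIF4EBP2 with -0.0038 (-0.24 on its second tested probe), and EIF4B had -0.05 on its brightest probe but 0.13 on each of its other tested probes. PDCD4, a repressor of the helicase of the cap complex, was lower with -0.54 (adjusted p = 0.0432 by limma with the trend).

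FOXO factors are held out of the nucleus by AKT, and genes they induce serve as a readout of low PI3K activity in many cells. Of 12 tested FOXO factors and FOXO-induced genes, 6 had differences above 0 and 6 below, and the median was 0.0022. TXNIP, which binds thioredoxin and limits glucose uptake, had a difference of -0.70 (adjusted p = 0.00669 by limma with the trend), and TRIB1, a pseudokinase, of -0.37 (adjusted p = 0.0153 by limma with the trend). BCL6, a transcriptional repressor, rose by 0.60 (adjusted p = 0.013 by limma with the trend). FOXO1, FOXO3 and FOXO4 themselves differed by -0.03, 0.06 and 0.0090.

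**Figure D5:**
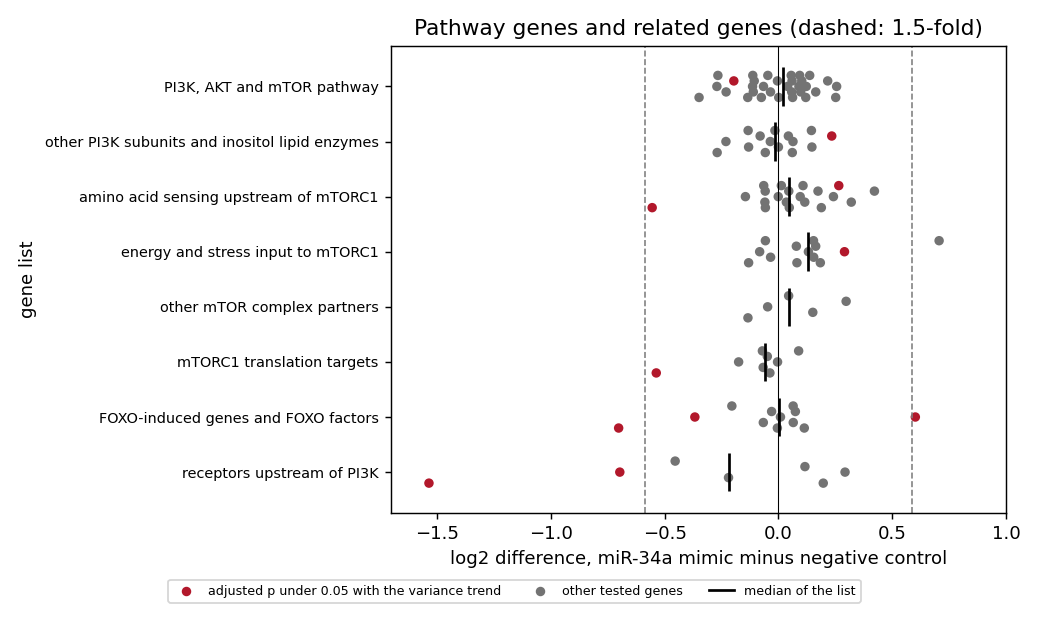
Log2 difference, mimic minus control (x axis), for the 32 tested pathway genes and 7 lists of related genes, with 1 point per gene; vertical bars are list medians and dashed lines mark 1.5-fold. PDGFRA, KIT and TXNIP lie beyond 1.5-fold on the low side and DDIT4L and BCL6 on the high side, and red points had an adjusted p under 0.05 with the variance trend.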

How the data were processed

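From the 1-color arrays the authors deposited the processed intensity of each spot (Agilent Feature Extraction 10.7.3.1), background-subtracted and detrended within the array and not scaled between arrays. They also deposited these values joined for all arrays, within 0.496% of the scanner output, in which 0 columns belonged to no sample. The arrays shared 1 slide and 1 scan, so neither could serve as a block. Control spots and outlier spots (293 to 424 of 58717 per array) were dropped, 0 spots were saturated, and repeated spots were averaged per probe. Values were taken as log2 of the deposited intensity minus the log2 75th percentile.

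Differences were tested with limma 3.58.1 (lmFit, eBayes; R 4.3.3) with Benjamini-Hochberg adjustment over 21453 probes, those that both arrays of 1 condition or more measured well above background and that had a value on every array. Each gene was represented by its tested probe of highest mean signal, giving 16182 genes. The 36 symbols were all found in RefSeq. The authors analyzed the arrays in GeneSpring GX; their scaling and test for the arrays are not given in the sources used here. Probe positions are hg19, from the array annotation. The number of arrays limits the precision. The calculations were tested on simulated data.

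The members, the lists and the rule for named genes (all members; of the other lists, genes with an unadjusted p under 0.05 and over 1.5-fold, otherwise the largest difference of a list, and KIT and PDGFRA) were chosen with earlier results of these data known. Alternatives were normexp (offset 50), quantile normalization, the percentile over detected probes, 2 other filters, a variance trend, the replicate block, the authors' joined values, Student's t-test, the mean of a gene's probes and leaving out each array. Combinations with the variance trend were added after the data were seen.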

Additional observations from a re-analysis of the deposited data

How the results depend on the processing

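With the variance trend, 1 pathway gene (EIF4EBP1) was lower and 0 were higher, against 640 and 692 of the 16182 genes. When probes had to be well above background on all 4 arrays, 1 (EIF4EBP1) was lower, against 678 of 15252 genes. With the trend and 1 array left out, the counts were 0 to 3 lower (EIF4EBP1, EIF4E and PDPK1 without mimic array 1, EIF4EBP1 without mimic array 2) and 0 to 2 higher (AKT1 and AKT2 without mimic array 1, TSC2 without mimic array 2), and 0 and 0 without either control array. Leaving out an array leaves 1 in its condition, taken to vary as much as the other condition does, so only differences are given. With the trend and the replicate block, quantile normalization or normexp, 0 pathway genes were called lower and 0 higher. Over all 16182 genes these fits called 532 and 458 (block), 582 and 848 (quantile) and 648 and 784 (normexp). With an array left out, the difference passed 1.5-fold for EIF4E without mimic array 1 (-0.66) and for DEPTOR without control array 1 (-0.80). Each of these values rests on 1 array of its condition.

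No shared effect of the replicate number was seen (correlation of deviations -0.0276), which does not tell whether the arrays were paired. With the replicate block, limma gave 0 pathway genes lower and 0 higher at an adjusted p below 0.05, as it did for all genes. At an unadjusted p below 0.05 the block gave 1 lower and 1 higher, against 2 and 4 without it. Of all 16182 genes, 1619 were lower and 1552 higher at that unadjusted p with the block. Student's t-test, which the paper used for continuous variables, called 0 pathway genes after adjustment and 4 lower and 4 higher before it. Of all 16182 genes it called 1 lower and 0 higher after adjustment, and 1470 and 1904 before it.

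Of the other lists, called by limma at an adjusted p under 0.05, normexp and the trend each gave 1 lower for amino acid sensing, 1 higher for energy and stress, 1 lower for translation targets, 2 lower and 1 higher for FOXO genes and 2 lower for receptors. The trend also gave 1 higher for amino acid sensing and 1 higher for the PI3K and inositol lipid enzymes. Of all 16182 genes, normexp called 356 lower and 376 higher, and the trend 640 and 692.

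Of the 32 pathway genes, 20 kept the sign of their difference in all of the 14 single alternatives and 12 did not. With normexp PIK3CA was 0.017. With the mean of all tested probes PHLPP2 was -0.30, PDPK1 0.0066 and RHEB 0.040, the last through the probe annotated to the opposite strand. SGK1 was -0.0066 with the percentile over detected probes and -0.0038 with the authors' joined values. When single arrays were left out, the difference ranged from -0.068 to 0.060 for PIK3CA, -0.060 to 0.14 for PIK3R2, -0.27 to 0.46 for IRS1, -0.23 to 0.47 for GAB1, -0.035 to 0.16 for PHLPP1, -0.30 to 0.069 for PDPK1, -0.026 to 0.029 for SGK1, -0.15 to 0.061 for MAPKAP1, -0.80 to 0.26 for DEPTOR and -0.0066 to 0.12 for RPS6KB2. Why these values moved was not tested. The 95% intervals of EIF4E, IRS1, GAB1, INPP4B and DEPTOR reach beyond 1.5-fold, which limits what could be seen for them.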
